A study of Mus musculus with 83 samples.

Results

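The 10 genes described here belong to the part of the MHC class I pathway that carries peptide to the cell surface. The 7 class I heavy chain genes are H2-K1, H2-K2 (annotated as a pseudogene), H2-D1, H2-Q1, H2-Q4, H2-Q6 and H2-Q10. With them come the light chain gene B2m and the peptide transporter genes Tap1 and Tap2. The 10 genes were taken by name from the 21572 rows of the deposited count table. The list was chosen by measured values of these same libraries, so differences between groups in these genes are given as a description. No single p-value is printed for these differences. Calls at an adjusted p under 0.05 are listed for them beside the share of all genes called, and nothing is read from these calls. All 10 were among the 11889 genes that passed the filter on low counts. RNA came from single ovarian follicles of wild-type CD-1 mice, an outbred strain, and the labels do not give the animal or culture run behind a follicle. Alleles that differ between animals and the effect of storage can therefore not be told apart here, and p-values measure the spread between these follicles, which may be partly technical. Vitrified follicles (stored as a glass at low temperature before use) numbered 15, 14, 7 and 12 at 0, 1, 4 and 8 h after hCG (human chorionic gonadotropin, the hormone used to trigger ovulation), and fresh follicles numbered 18, 6, 7 and 4. Follicles of both kinds had grown for 8 days in alginate and, apart from those of 0 h, were then held in a medium holding 1.5 IU/ml hCG together with EGF (10 ng/ml) and recombinant FSH (10 mIU/ml). Library titles carry 3 plate names: one with all libraries of 0 h, one shared by fresh and vitrified follicles of 1, 4 and 8 h, and one with vitrified follicles only, 9 of 1 h and 9 of 8 h. Vitrified and fresh follicles of 1 h and 8 h were therefore compared within the shared plate, with 5 and 3 vitrified libraries, and any step that starts at 0 h also crosses plates.

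Class I molecules are made by nearly all nucleated cells. The proteasome cuts proteins into peptides, the transporter formed by TAP1 and TAP2 moves the peptides into the endoplasmic reticulum, and there a heavy chain folds with beta-2 microglobulin around one of them before moving to the surface, where CD8 T cells and natural killer cells read it. H2-K1 and H2-D1 encode the classical heavy chains, which differ strongly between mouse strains, while the H2-Q genes encode less variable chains, and interferons raise most genes of the pathway in many tissues. Whether these RNA levels come with protein at the cell surface was not measured.

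All but B2m lie on mouse chromosome 17, and B2m lies on chromosome 2 (GRCm38, GENCODE vM21). H2-K1 spans chr17:33996017-34000347 on the minus strand, with its neighbour H2-K2, annotated as a transcribed pseudogene, at chr17:33974659-33978827. Tap1 (chr17:34187553-34197225) and Tap2 (chr17:34203527-34216321) follow, and H2-D1 (chr17:35262730-35267499), H2-Q1 (chr17:35320405-35325099), H2-Q4 (chr17:35379617-35385290), H2-Q6 (chr17:35424850-35430055) and H2-Q10 (chr17:35470089-35474563) lie together farther along the plus strand. B2m spans chr2:122147686-122153083.

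The heavy chain genes are close copies, so reads of one can be counted to another. Coding sequences of H2-K1 and H2-D1 were identical at 91.4% of 1077 aligned bases, and the 21 pairs ranged from 84.1% to 91.4%. For the pseudogene H2-K2, which has no annotated coding sequence, the whole transcript was aligned. The 90 aligned bases in which the 7 genes are most alike (chr17:33997424-33997513 in H2-K1, minus strand, and chr17:35265831-35265920 in H2-D1, plus strand) show how little separates them. Capitals mark bases that differ from H2-K1, and 5 of the 90 positions vary among the 7 genes.
H2-K1: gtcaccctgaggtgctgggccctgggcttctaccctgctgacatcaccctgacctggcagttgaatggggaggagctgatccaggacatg
H2-K2: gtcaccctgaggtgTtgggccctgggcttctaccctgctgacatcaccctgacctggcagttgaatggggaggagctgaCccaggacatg
H2-D1: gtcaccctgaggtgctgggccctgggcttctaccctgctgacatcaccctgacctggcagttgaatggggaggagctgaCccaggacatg
H2-Q1: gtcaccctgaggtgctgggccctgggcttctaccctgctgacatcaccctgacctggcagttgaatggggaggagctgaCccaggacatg
H2-Q4: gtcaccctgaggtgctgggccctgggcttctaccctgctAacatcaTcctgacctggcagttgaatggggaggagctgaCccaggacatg
H2-Q6: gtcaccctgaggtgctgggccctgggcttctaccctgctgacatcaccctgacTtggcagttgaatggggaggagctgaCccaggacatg
H2-Q10: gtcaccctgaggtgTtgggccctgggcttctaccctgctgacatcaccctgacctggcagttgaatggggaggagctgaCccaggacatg

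The 90 aligned bases in which they vary most (chr17:33999329-33999418 in H2-K1 and chr17:35263967-35264056 in H2-D1), with 45 variable positions, show what tells the copies apart. Capitals again mark bases that differ from H2-K1, and H2-D1 differs at 16 of them.
H2-K1: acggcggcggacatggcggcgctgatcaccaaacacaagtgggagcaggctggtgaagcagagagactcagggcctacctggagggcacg
H2-K2: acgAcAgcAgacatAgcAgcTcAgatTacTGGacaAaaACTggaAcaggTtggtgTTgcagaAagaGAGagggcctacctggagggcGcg
H2-D1: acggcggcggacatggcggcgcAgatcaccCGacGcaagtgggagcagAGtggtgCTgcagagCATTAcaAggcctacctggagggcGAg
H2-Q1: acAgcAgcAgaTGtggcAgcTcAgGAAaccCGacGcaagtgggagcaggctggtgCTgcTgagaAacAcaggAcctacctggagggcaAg
H2-Q4: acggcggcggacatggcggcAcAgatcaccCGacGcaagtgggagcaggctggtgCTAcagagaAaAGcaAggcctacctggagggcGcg
H2-Q6: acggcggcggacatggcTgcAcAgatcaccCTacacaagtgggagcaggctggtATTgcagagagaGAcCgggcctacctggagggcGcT
H2-Q10: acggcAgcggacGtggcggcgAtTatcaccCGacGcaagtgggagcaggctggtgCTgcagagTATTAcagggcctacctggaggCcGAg

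For each gene the GENCODE transcript with the longest coding sequence was cut into 50-base words, and for H2-K2 its pseudogene transcript. H2-K1 shared 8.79% of these words with another gene, H2-K2 16.5%, H2-D1 14.3%, H2-Q1 22.9%, H2-Q4 24.3%, H2-Q6 32% and H2-Q10 8.03%. B2m shared none, Tap1 0.861% and Tap2 0.737%. The reference sequence is that of 1 inbred strain, and how follicles of an outbred strain with other alleles were matched to these copies was not tested. Levels of all 7 H2 genes, H2-K1 and H2-D1 included, are for this reason uncertain, and the summed count of the 7 H2 genes is given beside them.

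RefSeq promoters (GRCm38.p6, from 250 bases before to 50 bases after the start) were found for 7 of the 10 genes, 8 promoters in all. They are shown because H2-K1 and H2-Q4 differed in opposite directions between vitrified and fresh follicles of the same plate, whereas B2m differed little there. Whether the letters of these promoters bear on those differences was not tested. The 250 bases before the start are printed for H2-K1 (chr17:34000348-34000597, minus strand), H2-Q4 (chr17:35379367-35379616, plus strand) and B2m (chr2:122147437-122147686, plus strand), with searched motifs in capitals.
H2-K1: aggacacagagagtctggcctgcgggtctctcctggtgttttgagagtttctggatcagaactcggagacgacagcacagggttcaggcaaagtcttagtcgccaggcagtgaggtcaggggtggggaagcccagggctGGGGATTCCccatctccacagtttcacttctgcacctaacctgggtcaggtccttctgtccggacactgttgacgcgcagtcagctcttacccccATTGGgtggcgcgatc
H2-Q4: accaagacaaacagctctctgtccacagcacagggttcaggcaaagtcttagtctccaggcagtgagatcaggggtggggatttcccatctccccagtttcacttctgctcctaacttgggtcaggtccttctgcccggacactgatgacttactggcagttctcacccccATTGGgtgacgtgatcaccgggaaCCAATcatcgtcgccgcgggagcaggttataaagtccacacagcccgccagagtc
B2m: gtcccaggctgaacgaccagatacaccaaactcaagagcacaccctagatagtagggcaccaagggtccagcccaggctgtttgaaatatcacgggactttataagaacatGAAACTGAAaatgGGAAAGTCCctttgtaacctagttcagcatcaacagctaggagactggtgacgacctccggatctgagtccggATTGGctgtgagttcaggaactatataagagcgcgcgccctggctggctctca

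The kappa B letters GGGGATTCC, searched on both strands, occur in the promoters of H2-K1, H2-D1 and H2-Q6 and in 0.25% of all 32851 promoters. They lie 111 and 125 bases before the 2 annotated starts of H2-K1, 171 before that of H2-D1 and 173 before that of H2-Q6. The B2m promoter holds the interferon response core GAAANNGAA, present in 8.56% of promoters, and the kappa B letters GGACTTTCC on the opposite strand, present in 0.344%. GGGGATTCC and GGACTTTCC were the only kappa B letters searched, so a lack of other kappa B letters cannot be read from this. The H2-Q4 promoter holds the letters ggggatttcc, which were not among the motifs searched. GAAANNGAA was the only interferon pattern searched, so a lack of other interferon response letters in the heavy chain promoters cannot be read from this. The promoters of H2-K1, H2-D1, H2-Q4, H2-Q6 and H2-Q10 share the letters cagtttcacttctgc, which were not among the motifs searched. Whether these letters respond to interferon was not tested. CCAAT, present in 37.4% of promoters, occurs in those of H2-K1, H2-D1, H2-Q4, H2-Q6, B2m and Tap1. The H2-Q10 promoter holds none of the 7 motifs searched, and TGACGTCA (1.79% of promoters), TGACGCA (2.12%) and TGATGCAA (0.895%) occur in none of the 8. The motif matches in the printed stretches do not overlap each other. They describe the letters only.

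Compared per length, as TPM (transcript abundance scaled to gene length and library depth) from the authors' table, the classical heavy chains were the most abundant of the 10 genes. The median over 83 libraries was 496 TPM for H2-D1 and 301 TPM for H2-K1, which placed both above 98% of gene rows in the median library (98.9 and 98.6). B2m followed with a median of 59.9 TPM, then H2-Q4 with 35.8 TPM, H2-Q10 with 16 TPM, H2-K2 with 11.5 TPM, H2-Q1 with 8.86 TPM and H2-Q6 with 5.92 TPM. The transporter genes were lowest, with medians of 2.89 TPM for Tap2 and 1.71 TPM for Tap1. The ranges over libraries of neighbours in this order overlapped, from 37.7 to 1320 TPM for H2-D1 and from 90.9 to 736 TPM for H2-K1, for example. H2-Q6 and Tap1 were each listed at 0 in 1 library.

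Below, levels within a gene are CPM (counts scaled to a common library size, with TMM factors), and differences are log2 fold changes ± SE from edgeR, vitrified minus fresh or later minus earlier. H2-K1, a classical heavy chain, was higher in vitrified than in fresh follicles at each of the 4 times. At 0 h it ranged from 202 to 995 CPM with a median of 491 in 15 vitrified follicles, against 115 to 504 with a median of 269 in 18 fresh follicles. At 1 h the vitrified follicles of the shared plate had 491, 606, 670, 793 and 904 CPM, against 126 to 316 with a median of 176 in 6 fresh follicles. Every vitrified follicle of 1 h lay above every fresh one, including the 9 of the vitrified-only plate at 362 to 936 CPM. At 4 h the range was 352 to 826 CPM (median 651, n = 7) in vitrified and 170 to 434 CPM (median 330, n = 7) in fresh follicles, with 1 vitrified follicle inside the fresh range. At 8 h the 3 vitrified follicles of the shared plate had 211, 373 and 399 CPM. The fresh ones had 74.5, 92.4, 110 and 275 CPM, so the ranges overlapped. The 9 vitrified follicles of 8 h on the vitrified-only plate had 122 to 435 CPM (median 192) and overlapped the fresh range too. The differences were 0.85 ± 0.19 at 0 h, 1.75 ± 0.33 at 1 h, 1.10 ± 0.29 at 4 h and 1.25 ± 0.41 at 8 h.

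**Figure D1:**
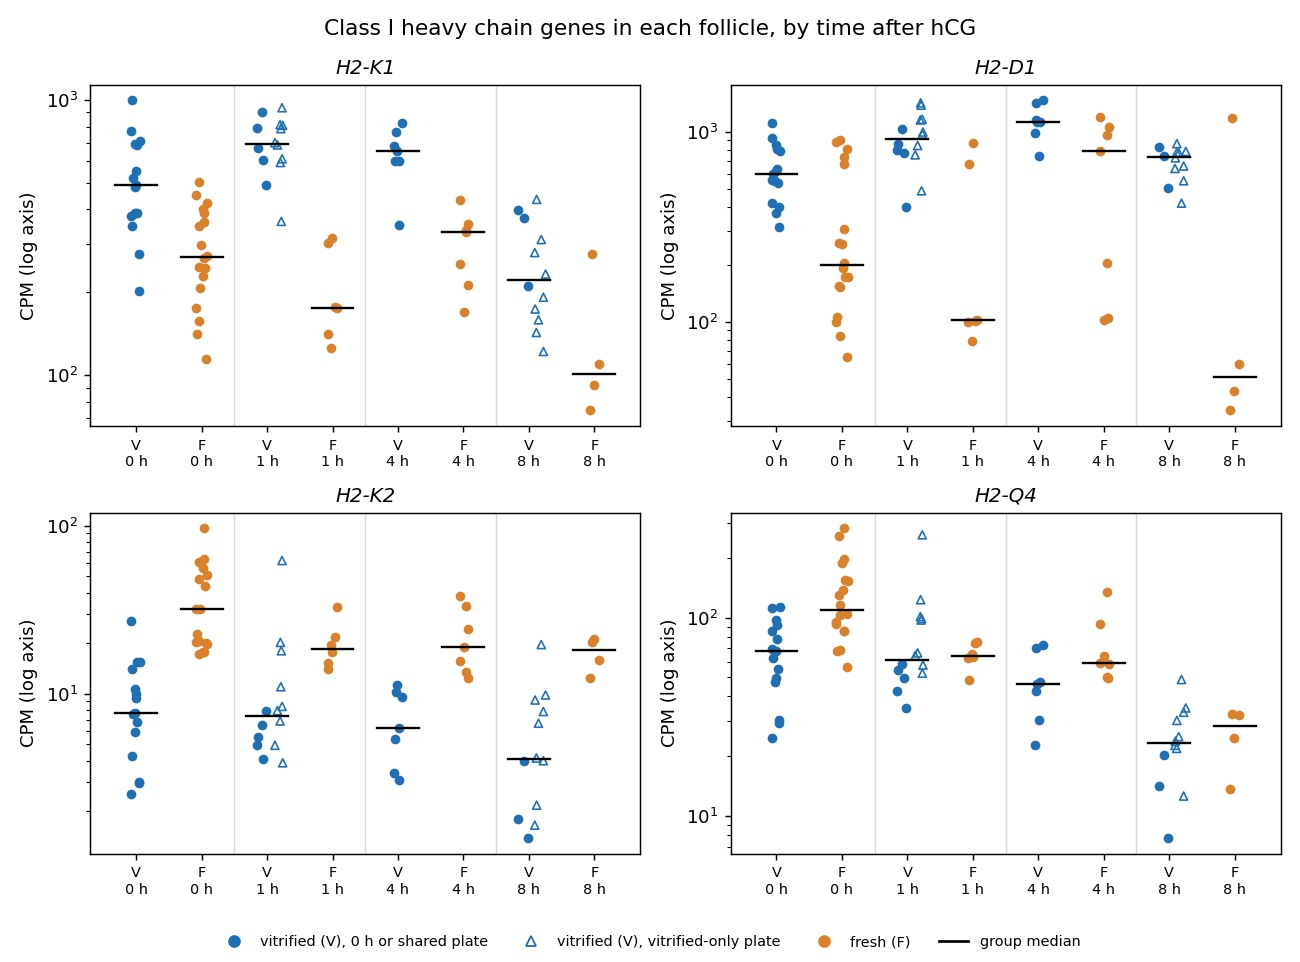
H2-K1, H2-D1, H2-K2 and H2-Q4 in CPM (log axes) in each of 83 follicles, with vitrified (V) left of fresh (F) at 0, 1, 4 and 8 h after hCG, open triangles for the vitrified-only plate and black bars for group medians. H2-K1 sits higher in vitrified follicles, H2-K2 lower, and fresh H2-D1 values fall into a high and a low set at every time.

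H2-D1, the other classical heavy chain, was spread differently in the 2 kinds of follicle. All 48 vitrified follicles had at least 314 CPM, whereas fresh follicles fell into 2 separate sets at each time. At 0 h the vitrified range was 314 to 1115 CPM with a median of 598 (n = 15). Among the 18 fresh follicles, 5 had 675, 737, 810, 885 and 904 CPM and the other 13 lay between 64.9 and 306 CPM. At 1 h the shared-plate vitrified follicles had 404, 770, 805, 857 and 1039 CPM, and the fresh ones had 79.4, 99.4, 101, 102, 680 and 872 CPM. The gap between 102 and 680 CPM in fresh follicles of 1 h held no library.

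The same split was seen later in fresh follicles. At 4 h vitrified follicles had 743 to 1462 CPM (median 1124, n = 7), against 102, 104, 203, 790, 965, 1064 and 1194 CPM in fresh ones. At 8 h the 3 vitrified follicles of the shared plate had 508, 745 and 832 CPM, and the 4 fresh ones had 34.1, 43.2, 59.7 and 1178 CPM. The vitrified and fresh ranges of H2-D1 overlapped at every time, and the differences of 0.87 ± 0.36, 1.27 ± 0.63, 0.86 ± 0.56 and 1.09 ± 0.79 at 0, 1, 4 and 8 h had wide errors. Without the fresh follicle at 1178 CPM, replicate 3, the 8 h difference was 3.95.

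The level of H2-D1 relative to H2-K1, as a ratio of TPM within a library, fell into the same 2 sets in fresh follicles. Over all 35 fresh libraries the ratio was at most 0.781 in 23 and at least 1.52 in 12, with none between. Of the 48 vitrified libraries 27 lay between these bounds, 19 at or above the upper one and 2 at or below the lower one. This changed with time: 14 of 15 vitrified follicles lay between the bounds at 0 h, and at 1 h 4 of 5 on the shared and 7 of 9 on the vitrified-only plate. At 4 h only 1 of 7 lay there and 6 were at or above the upper bound, as were all 3 of the shared plate and 8 of 9 of the vitrified-only plate at 8 h. The gap was located after the values were seen, and no test was made on it. At 0 h the vitrified ratio averaged 1.14 ± 0.205 (SD, n = 15), against 0.933 ± 0.502 (SD, n = 18) in fresh follicles. By time, the high set held 5 of 18 fresh follicles at 0 h, 2 of 6 at 1 h, 4 of 7 at 4 h and 1 of 4 at 8 h.

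**Figure D2:**
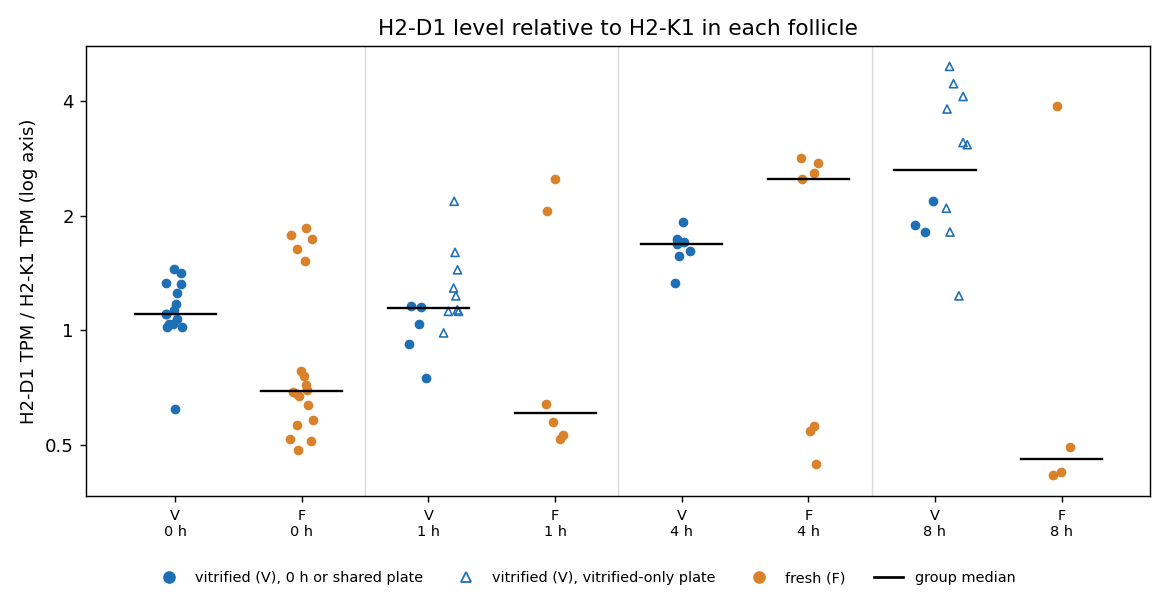
Ratio of H2-D1 to H2-K1 level, both in TPM, in each follicle (log axis), with vitrified (V) left of fresh (F) at each time, open triangles for the vitrified-only plate and black bars for group medians. Fresh follicles lie at 0.781 and below or at 1.52 and above, and 14 of 15 vitrified follicles of 0 h lie between these values, against 1 of 7 at 4 h.

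H2-K2, the pseudogene beside H2-K1, moved the other way from its neighbour. At 0 h it ranged from 2.52 to 27 CPM (median 7.72, n = 15) in vitrified and from 17.3 to 96.7 CPM (median 31.8, n = 18) in fresh follicles. In the shared plate the ranges did not overlap at 1, 4 or 8 h, for instance 1.38, 1.80 and 4.00 CPM in vitrified against 12.4, 15.9, 20.4 and 21.2 CPM in fresh follicles at 8 h. The differences were -1.99 ± 0.30, -1.78 ± 0.54, -1.66 ± 0.48 and -2.80 ± 0.72 at 0, 1, 4 and 8 h. Without a plate term they were -0.83 at 1 h and -1.54 at 8 h, and without vitrified 8 h replicate 3 the 8 h difference was -3.45. The vitrified-only plate reached higher, to 62.0 CPM at 1 h and 19.6 CPM at 8 h, and overlapped the fresh values. In the fresh follicles of 0 h with the 5 highest H2-D1 values, H2-K2 was at 17.3, 17.6, 17.8, 19.8 and 20.4 CPM, at the low end of the fresh range.

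The H2-Q genes were lower in vitrified follicles at 0 h. H2-Q4 ranged from 24.7 to 113 CPM (median 68.1, n = 15) in vitrified, against 56.0 to 282 CPM (median 109, n = 18) in fresh follicles, a difference of -0.96 ± 0.21. H2-Q1 differed by -1.29 ± 0.24, H2-Q6 by -1.04 ± 0.23 and H2-Q10, which encodes a chain known as secreted in mouse liver, by -0.61 ± 0.24. The ranges of all 4 overlapped. At 4 h H2-Q6 ranged from 2.91 to 7.25 CPM (median 5.06, n = 7) in vitrified and from 7.61 to 15.3 CPM (median 10.7, n = 7) in fresh follicles, without overlap, a difference of -1.16 ± 0.39. At 8 h H2-Q10 had 7.61, 9.13 and 13.7 CPM in vitrified follicles of the shared plate, against 28.2, 39.2, 42.4 and 43.1 CPM in fresh ones, which did not overlap, and differed by -1.96 ± 0.54. On the vitrified-only plate H2-Q10 ranged from 5.82 to 29.7 CPM (median 11.2, n = 9) at 8 h and overlapped the fresh range. H2-Q1 did not keep to one direction, with -0.32 ± 0.41 at 1 h, -0.09 ± 0.36 at 4 h and 0.53 ± 0.52 at 8 h, and the 1 h values of H2-Q1 and H2-Q4 changed sign without a plate term.

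Summed over the 7 H2 genes, counts were higher in vitrified follicles at each time, with overlapping ranges. The sum ranged from 563 to 2314 CPM (median 1115, n = 15) in vitrified and from 284 to 1629 CPM (median 762, n = 18) in fresh follicles at 0 h. The differences of the sum were 0.53 ± 0.23, 1.26 ± 0.40, 0.80 ± 0.35 and 0.92 ± 0.50 at 0, 1, 4 and 8 h. At 8 h the 3 vitrified follicles had 743, 1165 and 1272 CPM, against 179, 233, 273 and 1554 CPM in fresh ones, and without that last follicle the difference was 2.23. As a share of all counts the sum made up 0.139% ± 0.0499 (SD, n = 15) in vitrified and 0.104% ± 0.0482 (SD, n = 18) in fresh follicles at 0 h. By median, immune cell markers were lower in vitrified follicles at 0, 1 and 4 h, and at 8 h the plates went opposite ways. They summed to 0 to 46.6 CPM (median 1.61) in vitrified and 1.36 to 99.5 CPM (median 14.6) in fresh follicles at 0 h, and to 0 to 8.87 CPM (median 2.16) in vitrified follicles of the shared plate and 20.2 to 58.4 CPM (median 28) in fresh ones at 1 h. At 4 h they summed to 1.08 to 25.8 CPM (median 11.1) in vitrified and 0.757 to 58 CPM (median 16.7) in fresh follicles. At 8 h the sums were 32.8 to 35.6 CPM (median 33.1) in the 3 vitrified follicles of the shared plate. Fresh follicles of 8 h had lower sums by median, with 14.4 to 33.6 CPM (median 23.6). The 9 vitrified follicles of 8 h on the vitrified-only plate were lower still, with 0.386 to 32.1 CPM (median 1.72). The part of these cells in the class I differences was not tested, and fewer cells of a type and less RNA per cell cannot be told apart in whole follicles.

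B2m, the light chain, stayed close between vitrified and fresh follicles of the same plate. At 0 h it ranged from 48.2 to 127 CPM (median 77.7, n = 15) in vitrified and from 66.2 to 153 CPM (median 94.9, n = 18) in fresh follicles, a difference of -0.26 ± 0.13. At 4 h and 8 h the differences were -0.27 ± 0.19 and 0.18 ± 0.27, and at 1 h the value of 0.01 changed sign under 7 of the alternatives run. Without a plate term the 1 h difference was 0.45. Fresh follicles of 1 h had 87.8 to 119 CPM (median 99.2, n = 6) of B2m. Vitrified ones had 45.2 to 159 CPM (median 101, n = 5) on the shared plate. The vitrified-only plate reached higher at 1 h, at 89.2 to 286 CPM (median 150, n = 9). The summed H2 level was larger relative to B2m in vitrified follicles, with a ratio of TPM of 19.8 ± 9.06 (SD, n = 15) against 11.2 ± 6.16 (SD, n = 18) in fresh ones at 0 h.

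Tap2, which encodes one chain of the peptide transporter, was higher in vitrified follicles at 0 h, and Tap1, its partner, was less so. Tap2 ranged from 4.15 to 56.5 CPM (median 18.3, n = 15) in vitrified and from 2.51 to 14 CPM (median 6.83, n = 18) in fresh follicles, a difference of 1.79 ± 0.31, or 0.93 with limma on log2(TPM + 1). Tap1 ranged from 1.78 to 16.1 CPM (median 6.93) in vitrified and from 2.91 to 14.7 CPM (median 6.62) in fresh follicles, a difference of 0.37 ± 0.24. The Tap2 ranges overlapped in the lower part of the vitrified values. At later times the Tap2 differences were 1.25 ± 0.51 at 1 h, 0.64 ± 0.50 at 4 h and 0.05 ± 0.61 at 8 h, the last changing sign under 5 of the alternatives. The 1 h difference was 0.64 without a plate term and 0.65 with limma on log2(TPM + 1). Vitrified follicles of 1 h on the shared plate had 7.68 to 50 CPM of Tap2 (median 27, n = 5). Fresh ones had 6.81 to 18.1 CPM (n = 6), within the range of the vitrified-only plate, at 3.7 to 20.6 CPM (median 7.94, n = 9). That plate lay below the fresh follicles by median, though not by mean, so the higher 1 h level was seen on the shared plate only.

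**Figure D3:**
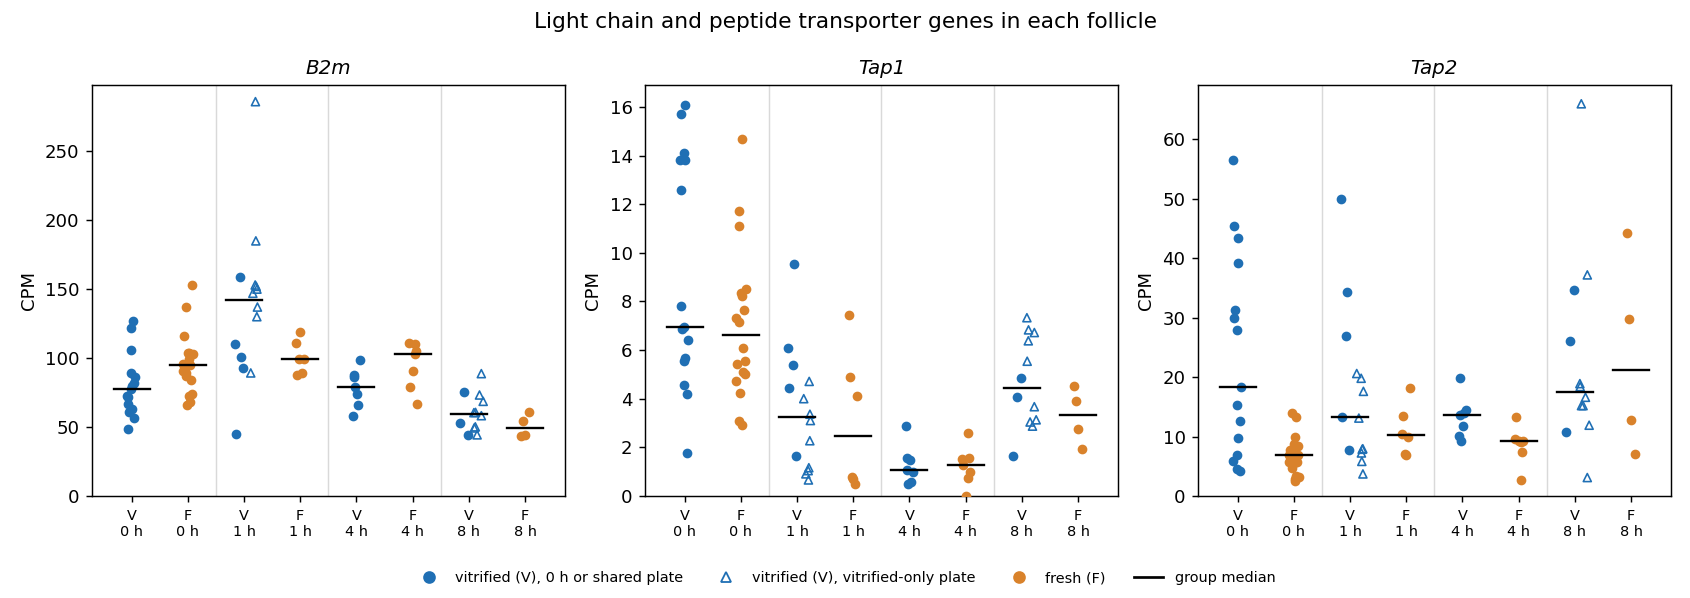
B2m, Tap1 and Tap2 in CPM in each follicle, with vitrified (V) left of fresh (F) at each time, open triangles for the vitrified-only plate and black bars for group medians. Tap1 is lowest by median at 4 h in both kinds of follicle, and at 0 h Tap2 spreads to 56.5 CPM in vitrified follicles and to 14 CPM in fresh ones.

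At an adjusted p under 0.05 from edgeR, 6 of the 10 genes were called between vitrified and fresh follicles at 0 h, where 0.959% of all genes were. H2-K1 and Tap2 were called higher and H2-K2, H2-Q1, H2-Q4 and H2-Q6 lower. H2-K1 was called at 1 h (0.555% of all genes), none of the 10 at 4 h (0.118%), and H2-K2 and H2-Q10 at 8 h (2.06%). Since the genes were picked with these contrasts known, nothing is read from these counts.

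With time after hCG, H2-K1 and H2-Q4 were lower at 8 h than at 4 h. From 4 h to 8 h H2-K1 differed by -0.97 ± 0.39 in vitrified follicles of the shared plate and by -1.12 ± 0.35 in fresh ones, and H2-Q4 by -1.76 ± 0.46 in vitrified and -1.51 ± 0.40 in fresh follicles. In CPM, H2-Q4 values of 8 h lay below all values of 4 h in the shared plate. They were 7.73, 14.2 and 20.3 CPM against 22.8 to 72.4 CPM (n = 7) in vitrified follicles. In fresh follicles they were 13.6, 24.8, 32.2 and 32.7 CPM against 49.5 to 135 CPM (n = 7). In TPM the ranges overlapped, at 7.88 to 15.6 against 12.7 to 41.8 TPM in vitrified and 12.7 to 34.9 against 25.3 to 70.3 TPM in fresh follicles. The 9 vitrified follicles of 8 h on the vitrified-only plate, at 12.6 to 48.7 CPM, overlapped those of 4 h. H2-D1 differed by -0.72 ± 0.74 in vitrified and -0.95 ± 0.67 in fresh follicles, and by -3.79 in fresh ones without replicate 3 of 8 h. B2m differed by -0.45 ± 0.25 in vitrified and -0.90 ± 0.23 in fresh follicles over this step. With library totals as the scale the median of all genes shifted by 0.73 in vitrified and 0.75 in fresh follicles over this step, and B2m in vitrified follicles changed sign. H2-K1 then differed by -0.38 in vitrified and -0.50 in fresh follicles, and H2-Q4 by -1.20 in vitrified and -0.84 in fresh ones. Summed levels of cell marker genes moved over the same step. Granulosa markers summed to 12532 to 14165 CPM (median 13860) at 8 h and 47324 to 74467 CPM (median 64615) at 4 h in vitrified follicles of the shared plate, and to 10165 to 14654 CPM (median 11641) at 8 h and 45800 to 72091 CPM (median 59579) at 4 h in fresh ones. Theca and stroma markers had medians of 2824 CPM at 8 h and 12023 CPM at 4 h in vitrified and 2813 CPM at 8 h and 10744 CPM at 4 h in fresh follicles. The theca and stroma list includes Star, and its sum had medians of 1315 CPM at 0 h and 13803 CPM at 1 h in fresh follicles. A change in cells and a change in expression of the marker genes cannot be told apart in these sums. The part of either in the class I steps was not tested.

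By median, Tap1 was lowest at 4 h in both kinds of follicle. In vitrified follicles it ranged from 1.65 to 9.53 CPM (median 5.4, n = 5) at 1 h, from 0.484 to 2.89 CPM (median 1.08, n = 7) at 4 h, and was 1.65, 4.05 and 4.85 CPM at 8 h, all in the shared plate. In fresh follicles it ranged from 0.500 to 7.46 CPM (median 2.45, n = 6) at 1 h and from 0 to 2.60 CPM (median 1.28, n = 7) at 4 h, and was 1.95, 2.75, 3.90 and 4.51 CPM at 8 h. The steps were -2.03 ± 0.50 from 1 h to 4 h and 1.47 ± 0.56 from 4 h to 8 h in vitrified follicles, and -1.39 ± 0.54 and 1.41 ± 0.55 in fresh ones. These steps of Tap1 kept their sign under the alternatives run, and from 1 h to 4 h were -0.79 in vitrified and -0.45 in fresh follicles with limma on log2(TPM + 1). Without a plate term the vitrified step from 1 h to 4 h was -1.49. On the vitrified-only plate Tap1 had 0.657 to 4.71 CPM (median 2.27, n = 9) at 1 h, which overlapped the vitrified range of 4 h. Tap2 differed from 4 h to 8 h by 0.87 ± 0.55 in vitrified and 1.46 ± 0.53 in fresh follicles.

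Within the vitrified-only plate, over 8 h minus 1 h, H2-K1 differed by -1.62 ± 0.26, H2-Q4 by -1.85 ± 0.29 and B2m by -1.37 ± 0.17, and Tap1 by 1.03 ± 0.39. B2m had 44.3 to 88.7 CPM (median 60.4, n = 9) at 8 h and 89.2 to 286 CPM (median 150, n = 9) at 1 h there, without overlap. These values depend on the scale. With library totals B2m differed by -0.59 and with limma on log2(TPM + 1) by -0.28, and in TPM its ranges overlapped, at 43.6 to 95.9 TPM at 8 h and 31.1 to 141 TPM at 1 h. H2-K1 differed by -0.84 with library totals and -0.63 with limma, and H2-Q4 by -1.12 and -0.69. Of the 10 genes 9 were called in this comparison, 2 higher and 7 lower, where 59.4% of all genes were called. In the shared plate 4 were called in vitrified follicles (50.1% of all genes) and 3 in fresh follicles (49.8%).

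Between neighbouring times, none of the 10 genes was called from 0 h to 1 h in vitrified follicles (43.5% of all genes) and 4 lower in fresh follicles (42.1%). From 1 h to 4 h only Tap1 was called, in vitrified (46.5%) and in fresh follicles (46.4%). From 4 h to 8 h 3 were called in vitrified (37.1%) and 7 in fresh follicles (36.5%). None of the 10 was called when the vitrified step was set against the fresh one, where 0.16% of all genes were called from 0 h to 1 h, 0.0421% from 1 h to 4 h and 0.993% from 4 h to 8 h. Between the vitrified-only and the shared plate none was called at 1 h (1.37% of all genes) or at 8 h (23.4%). Shares of the 10 near these backgrounds are no result about them.

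Genes that prepare and load the peptide were lower at 4 h than at 1 h. In a list of 13 genes of peptide cutting, trimming and loading, all tested, 10 fell and none rose from 1 h to 4 h in vitrified follicles, where 46.5% of all genes were called (2452 higher and 3076 lower), with a median of -1.14 against -0.11 over all genes. In fresh follicles 11 fell and 1 rose, where 46.4% of all genes were called (2604 higher and 2917 lower), with a median of -1.37 against -0.03. The immunoproteasome subunit genes Psmb8, Psmb9 and Psmb10, which shape the peptides for class I, were among them. Psmb8 averaged 1.15 ± 1.20 CPM at 4 h and 9.66 ± 3.29 CPM at 1 h in vitrified follicles (SD, n = 7 and 5, adjusted p = 9.7e-08), and 1.21 ± 0.693 CPM at 4 h and 4.98 ± 1.32 CPM at 1 h in fresh ones (SD, n = 7 and 6, adjusted p = 0.00051, edgeR). Erap1, the trimming enzyme of the endoplasmic reticulum, changed by -2.14 ± 0.23 in vitrified and -1.86 ± 0.22 in fresh follicles (edgeR, adjusted p = 4e-13 and 1.8e-11). In fresh follicles Psmb9 (-2.51) was not called with limma on log2(TPM + 1), and Pdia3 in vitrified follicles (-0.41) was not called under 7 of 14 alternatives.

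From 4 h to 8 h 4 of the 13 genes rose and 2 fell in vitrified follicles, where 37.1% of all genes were called, and 5 rose and 2 fell in fresh ones, where 36.5% were. These counts are near the background and are no result about the list. Psmb10 rose by 3.95 ± 0.66 in vitrified (edgeR, adjusted p = 8.74e-07) and 3.49 ± 0.67 in fresh follicles (adjusted p = 1.7e-05), and Psme1, a part of the proteasome activator PA28, by 1.81 ± 0.20 in vitrified and 1.51 ± 0.19 in fresh follicles. Pdia3, a member of the loading complex, fell in both, by 0.87 in vitrified and 0.61 in fresh follicles, and the call was lost in both with library totals as the scale. Psmb9 was near 0 at 8 h, at 0.314 ± 0.435 CPM in vitrified (SD, n = 3) and 0.129 ± 0.258 CPM in fresh follicles (SD, n = 4).

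Psme3, which encodes a nuclear proteasome activator, was the 1 gene of the 13 called between vitrified and fresh follicles. The call was at 8 h, where 2.06% of all genes were called. It averaged 3.99 ± 1.32 CPM in vitrified (SD, n = 3) and 30.3 ± 0.562 CPM in fresh follicles (SD, n = 4) at 8 h, a difference of -2.89 ± 0.58 (edgeR, adjusted p = 0.00155). The change from 4 h to 8 h was -2.27 ± 0.55 in vitrified and 1.15 ± 0.42 in fresh follicles, and the difference of these steps was -3.41 ± 0.69 (adjusted p = 0.00437). Both calls held under each of the 16 alternatives run, whereas the fresh step alone was not called without fresh 8 h replicate 4. The 9 vitrified follicles of 8 h on the other plate averaged 4.00 ± 1.95 CPM (SD).

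**Figure D4:**
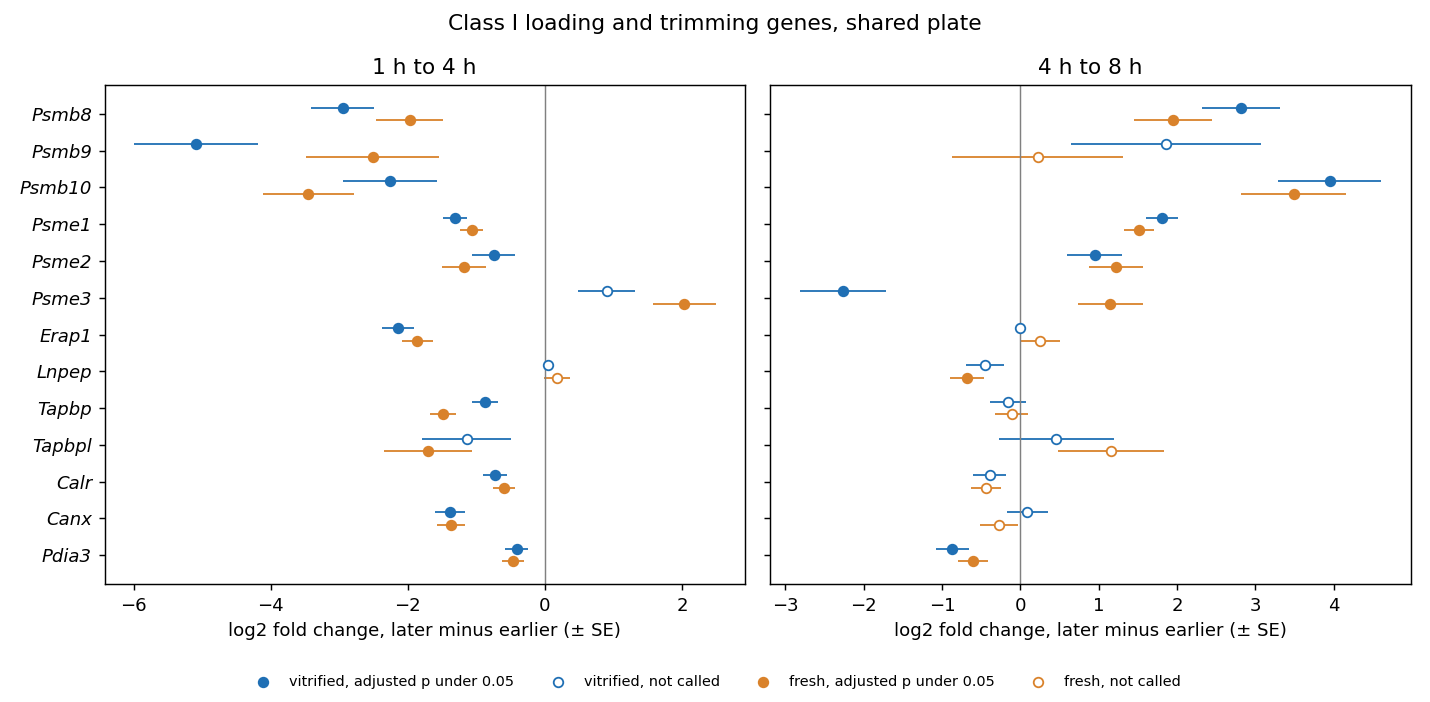
Log2 fold changes ± SE of 13 loading and trimming genes from 1 h to 4 h and from 4 h to 8 h in the shared plate, vitrified above fresh for each gene, filled where the edgeR adjusted p was under 0.05 and without a bar where the change was under 0.05. Most genes lie left of 0 in the first step, and Psme3 lies on opposite sides of 0 in the second.

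Among 30 other class I heavy chain and class I-like genes, 15 were in the table and 11 were tested. From 1 h to 4 h 4 of the 11 fell and none rose in vitrified and likewise in fresh follicles, a share below the 46.5% and 46.4% of all genes called there, so the values that follow are those of single genes. H2-T22 and H2-T10, non-classical heavy chain genes, fell by 1.89 and 3.00 in vitrified and by 2.29 and 3.31 in fresh follicles, and Fcgrt, the neonatal Fc receptor, fell by 2.04 in vitrified and 2.52 in fresh ones. The H2-T10 call in vitrified follicles was lost with limma on log2(TPM + 1). From 4 h to 8 h H2-T10 rose by 2.96 in vitrified and 2.27 in fresh follicles, and H2-T22 by 1.43 and 1.42, the H2-T22 call in vitrified follicles being lost without a plate term. Between vitrified and fresh follicles only H2-T22 was called, at 0 h, where 0.959% of all genes were called. Its difference of -0.72 was not called under 3 of 8 alternatives.

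Of 22 regulators of class I genes and interferon receptors 19 were tested, and none was called between vitrified and fresh follicles at any time. Few of all genes were called there, 0.959%, 0.555%, 0.118% and 2.06% at 0, 1, 4 and 8 h. None called among 19 is near these shares and is no result about the list. From 4 h to 8 h 5 of the 19 rose and none fell in vitrified follicles, where 37.1% of all genes were called. In fresh follicles 5 rose and 1 fell, where 36.5% were called. These counts are not above the background, so the value that follows is that of a single gene. Irf1, an interferon-induced activator of class I promoters, rose in this step by 3.51 in vitrified and 2.69 in fresh follicles. Nlrc5, which drives class I transcription, was below the filter. Of 28 interferon-induced genes 21 were in the table and 8 were tested. None of the 8 was called between vitrified and fresh follicles, which is also near the shares of all genes given above. From 0 h to 1 h, across plates, 1 rose and 2 fell in vitrified (43.5% of all genes called) and 2 rose and 1 fell in fresh follicles (42.1%). Oasl2 rose by 6.36 in vitrified and 6.25 in fresh follicles, Ifi27 by 0.61 in fresh ones, a call lost with library totals and with limma on log2(TPM + 1). Irgm1 fell by 4.00 in vitrified and 1.55 in fresh follicles (edgeR, adjusted p = 4.74e-05 and 0.0271), at mean levels under 2 CPM, and Ddx58 by 1.74 in vitrified ones, which was not called under 5 of 13 alternatives. From 1 h to 4 h 1 rose and 4 fell in vitrified (46.5%) and none rose and 3 fell in fresh follicles (46.4%). Irgm1 was the one that rose, by 3.42, a call lost with limma on log2(TPM + 1), and Oasl2, Bst2 and Ifi27 fell in both, with Ifi35 in vitrified ones. Oasl2 fell in this step by 3.35 in vitrified and 4.34 in fresh ones.

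Class II genes, which present peptide on specialised immune cells, were near 0. Of 11 in the list 6 were in the table and none passed the filter, and their summed level was at most 5.81 CPM in any vitrified and 3.41 CPM in any fresh library. Of the 13 immune cell markers 10 were in the table and 1 was tested, and Cd3e, of T cells, was under 1 count in every fresh library of 0 h and 1 h. On the vitrified-only plate they summed to 0.386 to 32.1 CPM at 8 h. Endothelial markers, all 6 in the table, summed to 0.916 to 40.9 CPM in vitrified and 2.73 to 59.5 CPM in fresh follicles at 0 h. Theca and stroma markers, all 9 in the table, summed to 308 to 2164 CPM in vitrified and 280 to 2736 CPM in fresh follicles at 0 h. Granulosa markers (8 of 8 in the table) summed to 47246 to 76937 CPM in vitrified and 36742 to 68110 CPM in fresh follicles at 0 h, and oocyte markers (8 of 8) had medians of 11 CPM in vitrified and 10.9 CPM in fresh ones.

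In vitrified follicles of 0 h the levels counted to several heavy chain genes varied together between follicles. Reads of one copy can be counted to another, so these p-values cannot tell a relation of the genes from shared reads. H2-K2 had a median of 0.016 of the H2-K1 level in TPM in these follicles. The part of shared reads in the relations was not tested. Over the 15 libraries H2-K1 and H2-D1 had r = 0.88 and rho = 0.81 (permutation test, adjusted p = 0.000128 and 0.00138), and r was 0.77 without the 2 libraries farthest from the median. H2-K1 and H2-K2 had r = 0.87 and rho = 0.91 (permutation test, adjusted p = 0.00012 for both), r = 0.89 without 2 libraries, and H2-D1 and H2-Q4 r = 0.90 and rho = 0.90 (permutation test, adjusted p = 5.33e-05 and 0.00012), r = 0.86 without 2. No relation of B2m to the heavy chains was detected in vitrified follicles, with r = -0.02 and rho = -0.04 for H2-D1 (permutation test, adjusted p = 0.997 and 0.893). Tap1 and Tap2 had r = 0.83 and rho = 0.76 in vitrified follicles (permutation test, adjusted p = 0.000347 and 0.00384), r = 0.76 without 2, and the summed H2 level and Tap1 r = 0.76 and rho = 0.74 (adjusted p = 0.00254 and 0.00551, permutation test), r = 0.57 without 2. In all 16 relations were tested, 8 in each group, on log2(CPM + 1). The unadjusted p of r was 4e-05 for H2-K1 with H2-D1, 3e-05 for H2-K1 with H2-K2, 1e-05 for H2-D1 with H2-Q4 (the smallest the permutations can give), 0.957 for H2-D1 with B2m, 0.00013 for Tap1 with Tap2 and 0.00111 for the sum with Tap1.

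Over all 18 fresh follicles of 0 h, H2-K1 and H2-D1 had r = 0.93 and rho = 0.97 (permutation test, adjusted p = 5.33e-05 and 0.00012), r = 0.94 without 2, and H2-Q4 and H2-Q6 r = 0.88 and rho = 0.84 (permutation test, adjusted p = 5.33e-05 and 0.00012), r = 0.78 without 2. No relation was detected between H2-K1 and H2-K2, with r = 0.02 and rho = -0.19 (permutation test, adjusted p = 0.997 and 0.644), r = -0.23 without 2, or between H2-D1 and H2-Q4, with r = 0.16 and rho = 0.33 (adjusted p = 0.771 and 0.316, permutation test), r = 0.26 without 2. Tap1 and Tap2 had r = 0.05 and rho = 0.11 (permutation test, adjusted p = 0.997 and 0.74), r = -0.31 without 2. The unadjusted p of r was 1e-05 for the first 2 pairs, 0.926 for H2-K1 with H2-K2, 0.53 for H2-D1 with H2-Q4 and 0.828 for the transporter pair. These pooled values mix the 2 sets of fresh follicles seen in H2-D1, so how the heavy chains vary together within a set cannot be read from them. The same 8 relations were also computed within the low set, which was picked by the H2-D1 to H2-K1 ratio itself, and are not used for that reason. The 3 deepest fresh libraries of 0 h, with 5115411 to 6504588 counts, had 115 to 158 CPM of H2-K1, against 175 to 504 CPM in the other 15. In vitrified follicles of 0 h the 3 deepest, with 3895925 to 4596634 counts, had 275 to 550 CPM, within the 202 to 995 CPM of the others. The parts of depth and of reads counted to another copy in the relations were not tested.

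Over the means of the 10 combinations of group and plate, the 3 other genes whose log2 level was most like the summed H2 level were Gm8909 (r = 0.963), Cox7b (0.887) and Zmym4 (0.865), and those most like B2m were Actb (0.960), Gm9081 (0.953) and Hsd3b3 (0.951). These means share libraries and scaling, so the values are a description. Whether Gm8909 shares reads with the H2 genes was not tested.

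Total counts ranged from 682200 to 6504588 with a median of 2765962. Within the shared plate at 1 h, totals ranged from 3478459 to 5597289 in vitrified and from 1719239 to 3049417 in fresh follicles, so that depth differs between the groups compared there.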

How the data were processed

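RNA of 83 single follicles was sequenced by Smart-Seq2 with Nextera XT libraries, per the labels' protocols, so molecules carried no identifiers and reads no strand. The authors deposited estimated counts per gene, of which 17.2% were not whole, and they were rounded here to whole numbers. The authors also deposited log2(TPM + 1) values, from which TPM was taken back by inverting the logarithm. The submitters' processing notes name Partek, Bowtie2, HISAT2 and DESeq2 and the build mm10. The counting of reads with several matches is not described in the labels.

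Counts were scaled by TMM and fitted with edgeR 4.0.16 (robust quasi-likelihood, R 4.3.3) with a mean for each of the 10 combinations of group and plate, over 11889 genes kept by filterByExpr with a minimum count of 10. Calls used a Benjamini-Hochberg adjusted p under 0.05 over all genes. CPM is on the scaled library size. Total counts of 682200 to 6504588 limit the precision of low genes, since 1 count is a larger share of a shallow library. In counts simulated for the 8 h comparison over 11889 genes, 38% of 100 genes changed 2-fold and 91% of 100 changed 4-fold were called, with 5 unchanged genes. Relations used log2(CPM + 1) and permutation tests with 100000 resamples. Coding sequences (GENCODE vM21), and the whole transcript of the pseudogene H2-K2, were aligned with MAFFT 7.526. DESeq2 1.42.0 and limma 3.58.1 (on log2(TPM + 1)) served as alternatives, with other scalings, filters, plate terms and left-out libraries. The genes named are the 10, up to 4 called genes of largest change per list and comparison, those needed for a small count, and the 3 most like the summed H2 level and B2m.

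The 10 genes, the lists and the tests were chosen with earlier results of these data known.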

Additional observations from a re-analysis of the deposited data

Results flagged for a closer look

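H2-D1 in fresh 8 h replicate 3 was 1178 CPM, against 34.1 to 59.7 CPM in the other 3 fresh follicles of 8 h, and stood far from them for a group of 4. The summed level of the 7 H2 genes in the same follicle was 1554 CPM, against 179 to 273 CPM in the others. These were 2 of 44 such checks, and chance gives about 1 in 20. High H2-D1 values of this size were also present in fresh follicles of 0, 1 and 4 h.

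Psme3 changed in opposite directions from 4 h to 8 h. The vitrified step minus the fresh step was -3.41 ± 0.69 on the log2 scale (edgeR, adjusted p = 0.00437), with steps of -2.27 in vitrified and 1.15 in fresh follicles.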

How the results depend on the processing

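Between vitrified and fresh follicles, the differences of H2-K1, H2-D1, H2-K2, H2-Q6 and the summed H2 level kept their sign at all 4 times under every alternative run. Over all comparisons, 1930 of 2120 values of the 10 genes stayed within their limits, 186 moved and 4 reversed. No paired analysis was possible because the labels give wells and plates, not animals or culture runs, and replicate numbers follow accession order. Low counts limit genes such as H2-Q6 and Tap1, each listed at 0 in 1 library, and H2-K2, at 1.38 CPM in its lowest library.

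With library totals only in place of TMM, the median of all genes shifted by up to 0.89, and calls from 0 h to 1 h were 1262 higher and 5370 lower in vitrified (2551 and 2621 with TMM) and 1160 and 5258 in fresh follicles (2257 and 2748 with TMM). From 4 h to 8 h they were 4713 higher and 836 lower in vitrified (2619 and 1789) and 5084 and 715 in fresh follicles (2474 and 1865). At 0 h, vitrified minus fresh gave 182 calls, 40 higher and 142 lower, against 114 (64 and 50). At 1 h it gave 29 against 66, 20 higher and 9 lower against 62 and 4. The 0 h to 1 h difference of steps gave 6 against 19. The summed H2 change was -0.30 from 0 h to 1 h (0.29 with TMM), -0.24 from 4 h to 8 h (-0.83) and 0.18 from 1 h to 8 h (-0.56) in vitrified follicles of the shared plate, and -0.17 (-0.95) in the vitrified-only plate from 1 h to 8 h.

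With limma on log2(TPM + 1), calls were 1553 at 0 h, 9 at 1 h, 28 at 4 h (14 in edgeR) and 454 at 8 h (245) between vitrified and fresh follicles, 1, 2 and 246 for the differences of steps from 0 h to 1 h, 1 h to 4 h (5) and 4 h to 8 h (118), and 45 between plates at 1 h (163). The summed H2 difference at 8 h was 1.38, and its vitrified change was -0.16 from 4 h to 8 h and 0.37 from 1 h to 8 h in the shared plate. From 1 h to 8 h in the vitrified-only plate the sum reversed to 0.12, the sum over all class I symbols to 0.10, H2-K2 to 0.07, H2-Q1 to 0.33 and H2-Q10 to 0.10, and B2m reversed to 0.18 in the shared plate. On log2(TPM + 1), r at 0 h reversed to 0.28 for H2-K1 and B2m and 0.25 for H2-D1 and B2m in vitrified follicles, and to -0.06 for H2-K1 and H2-K2 over all fresh follicles. The cause was not tested.

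DESeq2 gave 181, 24 and 417 calls at 0, 4 and 8 h between vitrified and fresh follicles, and 41 and 10 for the differences of steps from 0 h to 1 h and from 1 h to 4 h. Without a plate term there were 248 calls at 1 h, 713 at 8 h and 3 for the 1 h to 4 h difference of steps. With one shift for the vitrified-only plate there were 123 at 8 h, and 8 and 6 for the differences of steps from 0 h to 1 h and from 4 h to 8 h. Without that plate the 0 h to 1 h difference of steps gave 7. Within the shared plate only, 18 genes were called at 1 h and 0 by edgeR for the 1 h to 4 h difference of steps, for which the fit over all libraries had 783 genes at an unadjusted p under 0.05. Without the low-count filter the 4 h to 8 h difference gave 60.

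Leaving out 1 library in turn, calls between vitrified and fresh follicles ranged from 7 (without vitrified 1 h replicate 4) to 105 (without replicate 3) at 1 h and from 43 (without vitrified 8 h replicate 3) to 264 at 8 h. The summed H2 difference at 8 h ranged from 0.63 to 2.23, its fresh change from 4 h to 8 h from -2.24 to -0.66, its fresh change from 1 h to 8 h from -1.48 to 0.07, and the 4 h to 8 h difference of steps from -0.17 to 1.43, the far values being those without fresh 8 h replicate 3. Calls for differences of steps ranged from 3 to 43 from 0 h to 1 h and from 1 to 10 from 1 h to 4 h, lowest without vitrified 1 h replicate 4, and from 17 to 101 from 4 h to 8 h, lowest without vitrified 8 h replicate 3. Between plates they ranged from 31 to 229 at 1 h and from 1177 to 2550 at 8 h, lowest without the same 2 libraries.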

Other observations

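The ratio of H2-K2 to H2-K1, both in TPM, was at most 0.0688 in any vitrified follicle and at least 0.0357 in any fresh one. At 0 h it ranged from 0.00691 to 0.0365 (median 0.016, n = 15) in vitrified and from 0.0357 to 0.258 (median 0.181, n = 18) in fresh follicles. The ratio of H2-Q4 to H2-K1 ranged at 0 h from 0.0541 to 0.14 in vitrified and from 0.16 to 0.566 in fresh follicles, which did not overlap. At 1 h on the vitrified-only plate it reached 0.213, inside the fresh range of 0.123 to 0.396.

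The ratio of Tap2 to Tap1 at 0 h had a median of 2.04 (0.566 to 3.46, n = 15) in vitrified and 0.672 (0.23 to 3.44, n = 18) in fresh follicles. These ratios are values of single libraries, and low counts of Tap1 and H2-K2 make them coarse.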
